A study of Arabidopsis thaliana with 12 samples.

Results

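The genes described here are 4 cell-wall genes of Arabidopsis thaliana, each taken at 1 named probe set of the Affymetrix ATH1 array: the expansin gene EXPA8 (AT2G40610), the expansin-like gene EXLB1 (AT4G17030) and the xyloglucan endotransglucosylase genes XTH16 (AT3G23730) and XTH19 (AT4G30290). All 4 were found, among 22746 probe sets that are not controls, and each probe set was annotated to 1 gene, as were those of 13356 named genes in all. Total RNA came from vegetative rosettes of plants grown for 4 weeks and then either kept watered or left without water until their relative water content had fallen to 65%. Plants of 3 genotypes were used. Wild type was Columbia-0, atx1 is mutant in ATX1, which encodes a histone methyltransferase, and the name of MYO-OX points to overexpressed MYO1, a homolog of myotubularin. Genotype and water state gave 6 groups of 2 biological replicates, 12 arrays in all. The allele of the mutant, the promoter and number of lines behind MYO-OX, and any pooling of plants are not given in the sources used here, and no level of ATX1 or MYO1 was analysed. Levels are log2 signals, given for both arrays of a group or as mean ± SD with n = 2. Differences are log2 differences with the standard error (SE) of limma, a linear model fitted to all probe sets. A difference was called at an adjusted p under 0.05 over all probe sets.

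Growing plant cells are held by a wall of cellulose microfibrils tied together by xyloglucan and pectin. Expansins loosen this wall without cutting it, mostly at acid pH, which lets the cell enlarge under its own turgor. Alpha- and beta-expansins have shown this activity in plants, whereas expansin-like proteins such as that of EXLB1 share the fold but have no established loosening activity. Enzymes of the XTH family cut xyloglucan chains and rejoin them to others, so that the wall can be remodelled while it grows. Leaf expansion slows when water is short, and both families are commonly followed as markers of wall growth in rosettes.

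Some arrays stood apart from others in measures that do not come from these genes. The leaf gene RCA, for rubisco activase, lay at or above 96.1% of probe sets on every array. PRK, for phosphoribulokinase, lay at 9.25 on watered MYO-OX replicate 1 and at 12.27 on replicate 2, and RCA at 10.81 and 13.72. These were the named ones among 16 leaf markers. Of 10 root markers, the root-hair genes EXPA7 and EXPA18 were measured and lay at or below 42.9% of probe sets on every array. None of 9 flower markers was measured under its name. The senescence gene SAG101, the 1 measured of 7, lay at 3.61 to 5.47. It was called lower under deficit in MYO-OX, with a change of -1.30 (limma adjusted p = 0.0077). Its MYO-OX deficit arrays lay at 7.4% to 12% of probe sets, a level not shown to be above background. The 1 GAPDH control probe set for the 3′ end exceeded the 1 for the 5′ end by 0.444 to 1.088 on 10 arrays, and by 1.742 and 1.193 where atx1 had been short of water. Spiked hybridization controls averaged 8.17 to 9.61 on those 10 arrays and 10.03 and 9.66 on the atx1 deficit pair. The part of the GAPDH difference and of the spiked controls in the atx1 results was not tested beyond fits with each as a covariate. RNA from whole rosettes cannot tell fewer cells of a type from less RNA per cell.

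In wild-type rosettes short of water, EXPA8, XTH16 and XTH19 fell and EXLB1 rose. The same held in MYO-OX. In atx1 EXLB1 rose, and no fall of the other genes passed limma. In wild type 3 of the 4 genes were called lower, where 10.7% of all probe sets were, and 1 was called higher, where 8.96% were. In MYO-OX the counts were also 3 lower and 1 higher, against 14% and 10.7% of all probe sets. In atx1 they were 0 lower and 1 higher, against 1.09% and 2.1%. The median change of the 4 genes was -3.24 in wild type, -0.41 in atx1 and -3.34 in MYO-OX, and the median over all probe sets was 0.01, -0.01 and 0.04. The 4 genes were chosen with earlier results of these data known. Their counts and medians, here and below, therefore describe the choice and test nothing. These 3 responses come from separate arrays, but the spread behind every test was estimated from all 12.

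**Figure D1:**
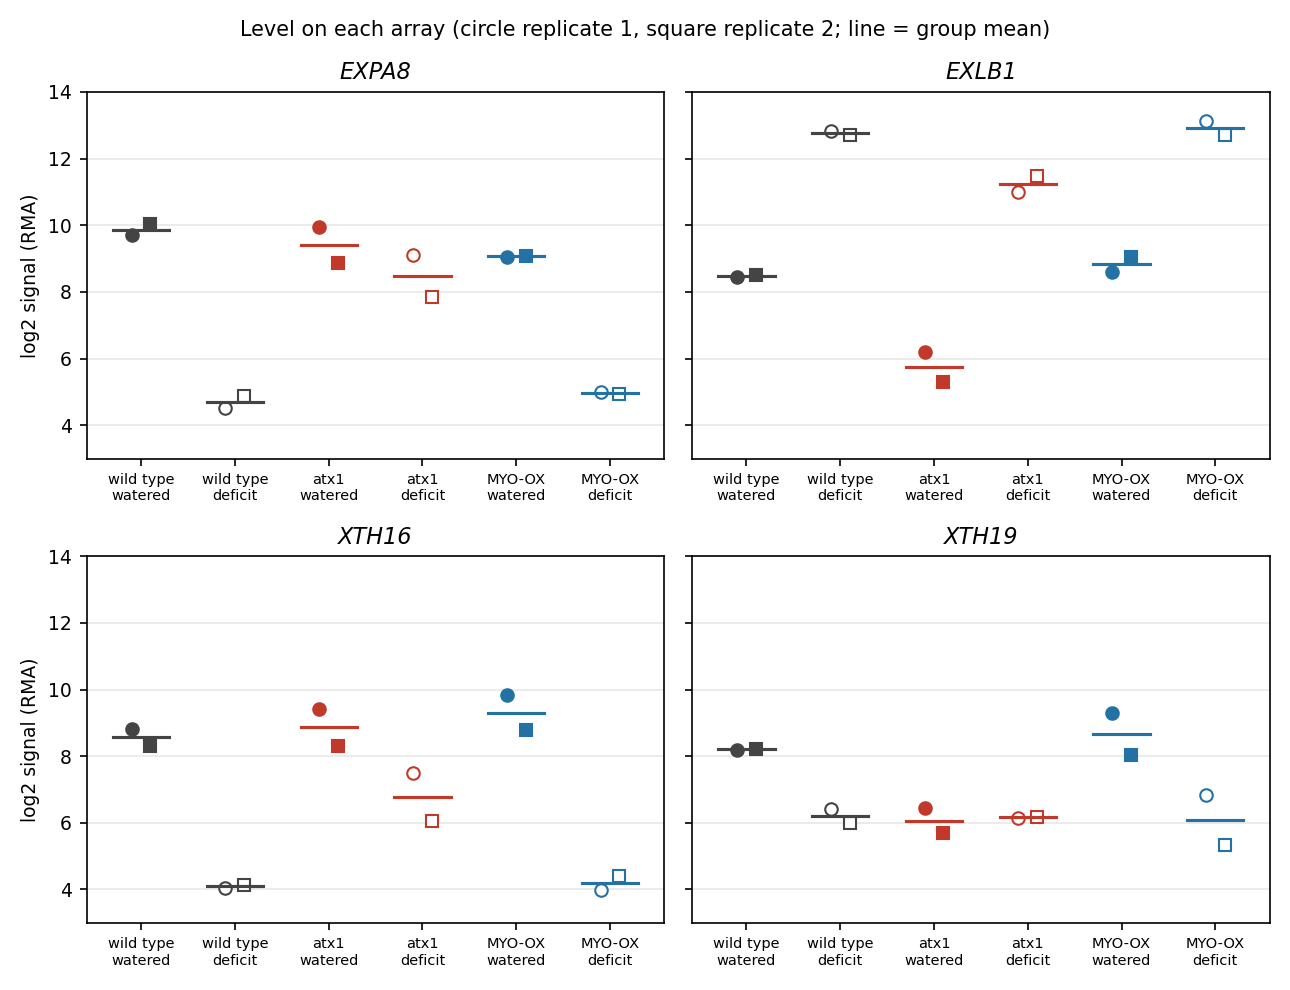
Log2 signal (vertical axis) of each of the 4 genes on each array, by genotype and water state; circles are replicate 1, squares replicate 2, filled symbols watered, open symbols water deficit, and lines group means. The wild-type and MYO-OX deficit arrays of EXPA8 and XTH16 lie at 5.003 or below, and both atx1 deficit arrays of each gene at 6.06 or above.

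EXPA8 encodes an alpha-expansin. Its level on the watered arrays was 9.70 and 10.04 in wild type, 9.94 and 8.88 in atx1, and 9.05 and 9.08 in MYO-OX. Under deficit it was 4.52 and 4.87 in wild type, 9.11 and 7.84 in atx1, and 5.003 and 4.93 in MYO-OX. The low arrays were thus the 4 deficit arrays of wild type and MYO-OX, and the other 8 lay at 7.84 or above. In wild type the change was -5.17 (SE 0.442, limma adjusted p = 0.000319), with a 95% interval of -6.19 to -4.16. In MYO-OX the change was -4.10 (SE 0.442, limma adjusted p = 0.000735). EXPA8 lay at or above 30.7% to 37.3% of probe sets on the 4 low arrays, a level not shown to be above background, so the falls of 36.1-fold and 17.2-fold are not exact. In atx1 the change was -0.94 (SE 0.442, limma adjusted p = 0.367; 95% interval -1.95 to 0.08), and watered and deficit arrays overlapped. Leaving out 1 atx1 array moved this value to -0.40 or -1.47 (watered replicate 1 or 2) and to -1.57 or -0.30 (deficit replicate 1 or 2). With the GAPDH covariate it was -1.69 (limma adjusted p = 0.0635) and with the hybridization covariate -1.28 (limma adjusted p = 0.153). Ordered by group mean, the watered groups stood first, from wild type at 9.87 ± 0.239 through atx1 at 9.41 ± 0.75 to MYO-OX at 9.07 ± 0.021, followed by atx1 under deficit at 8.47 ± 0.897. Each of these neighbours overlapped on single arrays. A gap of 2.837 separated them from MYO-OX and wild type under deficit, at 4.97 ± 0.054 and 4.70 ± 0.242.

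EXLB1 encodes an expansin-like protein of the B group, and its level moved opposite to that of EXPA8 under deficit. Watered arrays read 8.45 and 8.50 in wild type, 6.19 and 5.29 in atx1, and 8.59 and 9.06 in MYO-OX. Deficit arrays read 12.84 and 12.70 in wild type, 11.00 and 11.49 in atx1, and 13.12 and 12.71 in MYO-OX. Every deficit array was above every watered array, and within each water state both atx1 arrays were the lowest. EXLB1 rose by 4.29 in wild type (SE 0.324, limma adjusted p = 0.000249), a 19.6-fold change with a 95% interval of 3.55 to 5.04. It rose by 4.09 in MYO-OX (SE 0.324, limma adjusted p = 0.00027). In atx1 it rose by 5.51 (SE 0.324, limma adjusted p = 0.000453; 95% interval 4.77 to 6.25). That last call ended when only the 4 atx1 arrays were fitted (limma adjusted p = 0.0712). On the deficit arrays of wild type and MYO-OX EXLB1 exceeded at least 99.6% of probe sets, and on those of atx1 97.2% and 98.2%. In order of group means, MYO-OX and wild type under deficit, at 12.92 ± 0.286 and 12.77 ± 0.102, overlapped. The next were atx1 under deficit at 11.24 ± 0.351, watered MYO-OX at 8.83 ± 0.329, watered wild type at 8.47 ± 0.034 and watered atx1 at 5.74 ± 0.64, none of which overlapped with its neighbour. The gap between watered MYO-OX and watered wild type was 0.096, less than the SD of the former.

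XTH16 encodes a xyloglucan endotransglucosylase/hydrolase. On watered arrays its level was 8.83 and 8.31 in wild type, 9.42 and 8.31 in atx1, and 9.83 and 8.78 in MYO-OX. On deficit arrays it was 4.06 and 4.13 in wild type, 7.49 and 6.06 in atx1, and 3.99 and 4.40 in MYO-OX. The 3 watered groups overlapped, and the deficit arrays of atx1 lay between them and the low arrays of the other genotypes. XTH16 changed by -4.47 in wild type (SE 0.553, limma adjusted p = 0.00134; 95% interval -5.74 to -3.21) and by -5.11 in MYO-OX (SE 0.553, limma adjusted p = 0.000746; 95% interval -6.38 to -3.85). On those deficit arrays 13.8% to 28.8% of probe sets did not exceed XTH16, so the folds of 22.2 and 34.5 are not exact. In atx1 the change of -2.08 was not called (SE 0.553, limma adjusted p = 0.0924; 95% interval -3.35 to -0.82). Both deficit arrays lay below both watered ones, as they did for 23.6% of all probe sets. XTH16 did pass in atx1 under 4 of 19 alternatives and was not called under the rest. It passed once the GAPDH difference was a covariate (-3.44, limma adjusted p = 0.00393), or the hybridization controls were (-2.78, limma adjusted p = 0.0234). It also passed without atx1 water-deficit replicate 1 (-2.80, limma adjusted p = 0.0496) and with the replicate number as a block (limma adjusted p = 0.0458). Over all alternatives the adjusted p ran from 0.00393 to 0.426. Within atx1, replicate 1 was the higher array of EXPA8 and of XTH16 in both water states. For XTH16 it was also the higher array in watered wild type and watered MYO-OX, though not under deficit in either.

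XTH19 encodes another enzyme of the family, known in Arabidopsis for its part in rejoining tissue after stems are cut. Watered arrays read 8.19 and 8.22 in wild type, 6.43 and 5.68 in atx1, and 9.29 and 8.03 in MYO-OX. Deficit arrays read 6.42 and 5.99 in wild type, 6.15 and 6.18 in atx1, and 6.83 and 5.33 in MYO-OX. High levels were thus limited to the 4 watered arrays of wild type and MYO-OX, and the other 4 groups overlapped. In wild type XTH19 fell, with a change of -2.00 (SE 0.541, limma adjusted p = 0.0342; 95% interval -3.24 to -0.76). This call ended without any 1 of the 4 wild-type arrays (limma adjusted p from 0.117 to 0.154) and without either atx1 deficit array (limma adjusted p = 0.052). In MYO-OX XTH19 also fell, with a change of -2.58 (SE 0.541, limma adjusted p = 0.0109; 95% interval -3.82 to -1.34). That call ended without watered MYO-OX replicate 1 (-1.95, limma adjusted p = 0.0544), the array low in PRK and RCA. It also ended without deficit replicate 2 (-1.83, limma adjusted p = 0.0647) and with only the 4 MYO-OX arrays (limma adjusted p = 0.121). In atx1 the difference was 0.11 (SE 0.541, limma adjusted p = 0.975; 95% interval -1.13 to 1.35). Its sign turned, still uncalled, with the GAPDH covariate (-0.95, limma adjusted p = 0.319), with the hybridization covariate (-0.74, limma adjusted p = 0.265) and without watered atx1 replicate 2 (-0.27, limma adjusted p = 0.924).

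**Figure D2:**
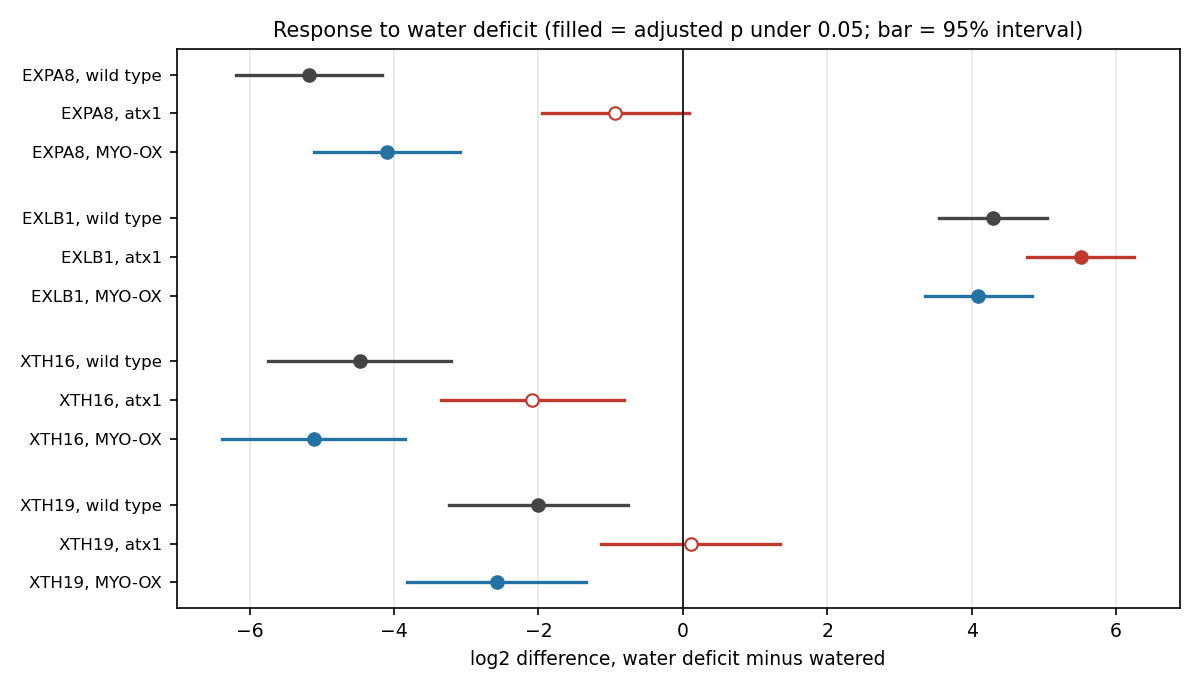
Response to water deficit (horizontal axis, log2 difference of deficit minus watered) of each gene in each genotype; points are limma estimates, bars 95% intervals, and filled points passed an adjusted p under 0.05. The estimates for EXPA8 are -5.17, -0.94 and -4.10 in wild type, atx1 and MYO-OX, and those for EXLB1 lie above 0 in all 3 genotypes.

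Comparing atx1 with wild type asked how the mutant differed within each water state. In watered rosettes EXLB1 was lower in atx1, with a difference of -2.74 (SE 0.324, limma adjusted p = 0.00511; 95% interval -3.48 to -1.99), a 6.67-fold difference. It was the 1 of 4 genes called, where 1.01% of all probe sets were called lower. The call ended without watered wild-type replicate 1 (limma adjusted p = 0.0572) and with only the 4 arrays compared (limma adjusted p = 0.0832). XTH19 differed by -2.15 (SE 0.541; 95% interval -3.39 to -0.91) without passing limma (adjusted p = 0.102). The arrays of the groups did not overlap, but for how many of all probe sets this held was not counted. XTH19 passed with the hybridization controls as a covariate (-2.51, limma adjusted p = 0.0101), with that of GAPDH (-2.14, limma adjusted p = 0.0309) and with the replicate block (limma adjusted p = 0.0365). These were 3 of 19 alternatives, and under the rest XTH19 was not called. EXPA8 and XTH16 differed by -0.46 (95% interval -1.47 to 0.55) and 0.29 (95% interval -0.97 to 1.56).

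Under water deficit EXPA8 and XTH16 were higher in atx1 than in wild type and EXLB1 was lower. EXPA8 was higher by 3.78 (SE 0.442, limma adjusted p = 0.00207; 95% interval 2.77 to 4.79), and this call held under all 20 alternatives, with estimates from 2.87 to 4.41. The wild-type deficit levels of EXPA8 and XTH16 were not shown to be above background, so differences that use them, those of responses included, are not exact. XTH16 was higher by 2.69 (SE 0.553, limma adjusted p = 0.0188; 95% interval 1.42 to 3.95). XTH16 did not pass with the GAPDH (1.05, limma adjusted p = 0.207) or the hybridization covariate (1.81, limma adjusted p = 0.0914). Nor did it pass without atx1 deficit replicate 1 (1.97, limma adjusted p = 0.111), or without wild-type deficit replicate 1 (limma adjusted p = 0.131) or 2 (limma adjusted p = 0.0785). EXLB1 was lower, with a difference of -1.52 (SE 0.324, limma adjusted p = 0.0212; 95% interval -2.27 to -0.78). Its call ended with the GAPDH covariate (-1.49, limma adjusted p = 0.125), without atx1 deficit replicate 1 (limma adjusted p = 0.136) and without wild-type deficit replicate 1 (limma adjusted p = 0.151) or 2 (limma adjusted p = 0.078). XTH19 differed by -0.04 (SE 0.541, limma adjusted p = 0.981; 95% interval -1.28 to 1.2), and by -1.32 (limma adjusted p = 0.242) and -1.11 (limma adjusted p = 0.142) with the GAPDH and the hybridization covariate. Of the 4 genes, 2 were called higher and 1 lower, against 7.36% and 4.73% of all probe sets. Those shares depend on the processing. With each array centred on its median, 966 probe sets were called higher and 1628 lower, instead of 1674 and 1077. In the same comparison SAG101 was called higher in atx1, by 0.92 (limma adjusted p = 0.0481). There SAG101 lay at 6.1% to 9.6% of probe sets in wild type and at 30.1% to 30.7% in atx1. Neither level was shown to be above background. PRK read 11.68 and 11.89 in atx1 and 10.53 and 10.72 in wild type under deficit, without a call (limma adjusted p = 0.409). The part of these markers in the result was not tested. Both comparisons of atx1 use wild-type arrays that also enter the wild-type response. The sample labels of atx1 and MYO-OX name no accession, and the series' description can be read as Columbia-0 for all plants.

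MYO-OX was not shown to differ from wild type in any of the 4 genes in either water state. limma called 0% of all probe sets in each of the watered, deficit and response comparisons, with 606, 147 and 276 probe sets at an unadjusted p under 0.05. EXPA8 differed by -0.80 in watered plants (SE 0.442; 95% interval -1.82 to 0.21) and by 0.27 under deficit (95% interval -0.74 to 1.28). Its watered arrays did not overlap between the groups, but for how many of all probe sets this held was not counted. EXLB1 differed by 0.35 and 0.15, XTH16 by 0.74 and 0.10, and XTH19 by 0.45 and -0.12, in watered and deficit plants in turn. The widest of these intervals ran from -0.53 to 2.01, for XTH16 in watered plants.

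**Figure D3:**
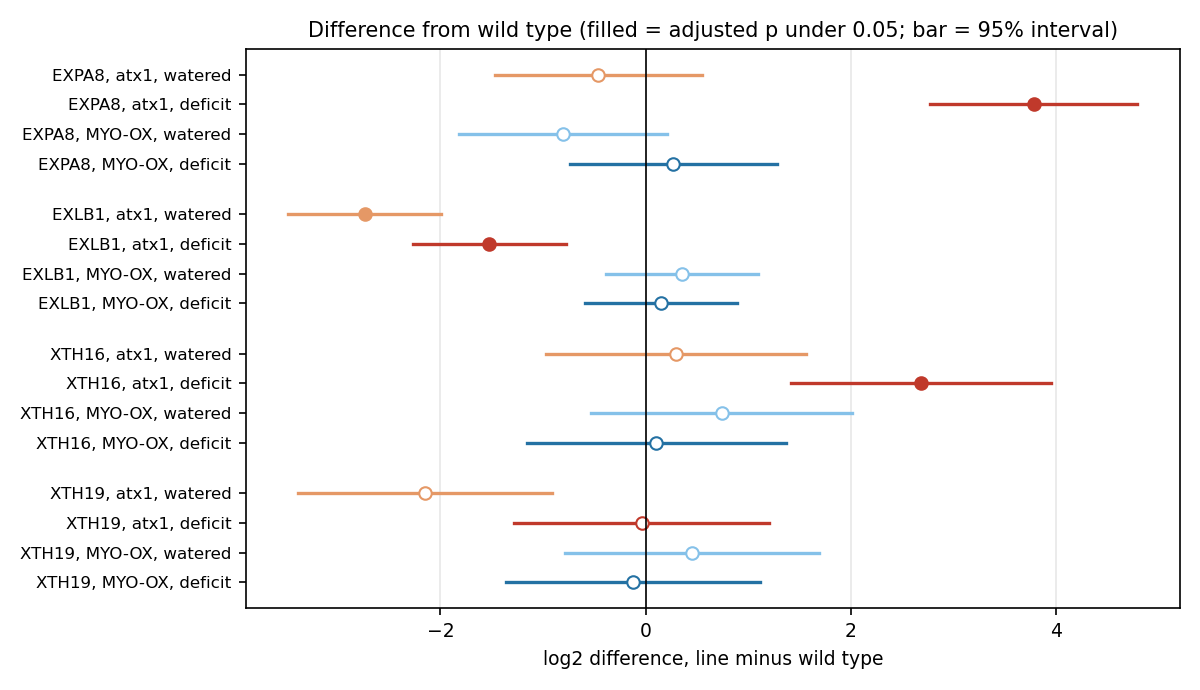
Difference from wild type (horizontal axis, log2 difference of the line minus wild type) for each gene, line and water state; points are limma estimates, bars 95% intervals, and filled points passed an adjusted p under 0.05. The filled points are EXLB1 in atx1 in both water states and EXPA8 and XTH16 in atx1 under deficit.

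Whether the response itself differed between genotypes was tested as the difference of responses. For EXPA8 the atx1 response exceeded that of wild type by 4.24 (SE 0.625; 95% interval 2.81 to 5.67), which missed the threshold (limma adjusted p = 0.0538). EXPA8 passed under 3 of 19 alternatives and was not called under the rest. It passed with each array centred on its median (4.11, limma adjusted p = 0.0469), with dim probe sets left out (limma adjusted p = 0.0319) and without atx1 deficit replicate 2 (4.87). Fitted with GAPDH as covariate the value was 3.32 (limma adjusted p = 0.119), and the adjusted p ran up to 0.278, without wild-type deficit replicate 1. XTH16, XTH19 and EXLB1 gave differences of 2.39 (SE 0.782, limma adjusted p = 0.325), 2.11 (SE 0.766, limma adjusted p = 0.382) and 1.21 (SE 0.458, limma adjusted p = 0.408). None of the 4 genes was called, and of all probe sets 0.176% were. With the GAPDH covariate the difference for XTH16 was 0.74 and that for XTH19 0.82. The 4 atx1 responses were all above those of wild type. For EXPA8 and XTH16 this is a smaller fall, with higher levels in atx1 than in wild type under deficit. For XTH19 it goes with the watered level, where atx1 minus wild type was -2.15 (not called), against -0.04 under deficit. For EXLB1 it goes with its lower level in watered atx1. Between MYO-OX and wild type the differences of responses were 1.07 for EXPA8 (95% interval -0.36 to 2.5), -0.21 for EXLB1 (-1.25 to 0.84), -0.64 for XTH16 (-2.43 to 1.15) and -0.58 for XTH19 (-2.33 to 1.17).

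The other genes of both families were taken from names in the annotation. Of 71 expansin and XTH genes listed there, 29 had a probe set of their own under their name, 19 of them expansin and 10 XTH genes. Apart from the 4 described, 25 were thus measured, and 13 of these lay below the median probe set on every array. In wild type 5 of the 25 fell, 1 rose and 19 were not called, with a median of -0.13, where 10.7% of all probe sets fell and 8.96% rose. In MYO-OX 6 fell, 1 rose and 18 were not called, with a median of -0.08, against 14% and 10.7% of all probe sets. In atx1 none fell, 2 rose and 23 were not called, with a median of -0.19, against 1.09% and 2.1%. The medians of all probe sets are those given above, between -0.01 and 0.04.

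Among alpha- and beta-expansins, EXPA4, EXPB1 and EXPB3 fell in wild type and in MYO-OX. EXPB3 went from 8.83 to 5.70 in wild type (change -3.13, limma adjusted p = 0.00596) and from 8.07 to 6.11 in MYO-OX (change -1.96, limma adjusted p = 0.034). EXPB1 changed by -2.78 in wild type (limma adjusted p = 0.0038) and by -1.46 in MYO-OX (limma adjusted p = 0.0438), a call that held under 7 of 19 alternatives, with a change of -0.74 without deficit MYO-OX replicate 2 (limma adjusted p = 0.204). EXPA4 changed by -1.90 (limma adjusted p = 0.02) and -2.16 (limma adjusted p = 0.0104). Its wild-type call ended without any 1 of the 4 wild-type arrays (limma adjusted p from 0.0735 to 0.123). The MYO-OX call of EXPB3 held under 12 of 19 alternatives and ended, among others, without watered replicate 2 (-1.27, limma adjusted p = 0.127) or deficit replicate 2 (-1.27, limma adjusted p = 0.192). The root-hair expansin genes EXPA7 and EXPA18 were not called in any genotype and stayed at low levels throughout. EXPB1 was also lower in watered atx1 than in watered wild type, at 5.82 against 8.18 (SE 0.442, limma adjusted p = 0.0352), a call that did not hold without any 1 of the 4 arrays compared (limma adjusted p from 0.0764 to 0.2).

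Among XTH genes, XTH18 and XTH32 fell in the same genotypes as XTH16 and XTH19. XTH18 is the neighbour of XTH19 in the TAIR10.1 annotation, with no other coding gene between them. It went from 6.89 to 4.76 in wild type (change -2.13, limma adjusted p = 0.00594) and from 7.71 to 4.55 in MYO-OX (change -3.15, limma adjusted p = 0.00107). Between watered atx1 and watered wild type XTH18 differed by -0.34 and XTH19 by -2.15, neither of them called. XTH32, for an enzyme of the group that cuts xyloglucan, changed by -2.86 in wild type (limma adjusted p = 0.00372) and by -2.97 in MYO-OX (limma adjusted p = 0.00286). XTH29 was called higher in all 3 genotypes, with changes of 1.14, 1.12 and 0.89 in wild type, atx1 and MYO-OX (limma adjusted p = 0.0098, 0.0374 and 0.0236). EXLB1 was the other gene of the 29 to do so. These calls held under 15, 7 and 13 of 18 alternatives, and the MYO-OX call ended without any 1 of the 4 MYO-OX arrays (limma adjusted p from 0.0516 to 0.122). Watered XTH29 lay at 19.8% to 27.5% of probe sets and XTH18 under deficit in wild type and MYO-OX at 27.2% to 36.7%, levels not shown to be above background, so these changes are not exact. EXGT-A3, which the annotation also names XTH27, had responses of 0.42, 0.04 and -0.20 in wild type, atx1 and MYO-OX, none of them called. Between atx1 and wild type EXGT-A3 differed by -1.11 when watered (limma adjusted p = 0.334) and by -1.49 under deficit (limma adjusted p = 0.0654), neither called.

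**Figure D4:**
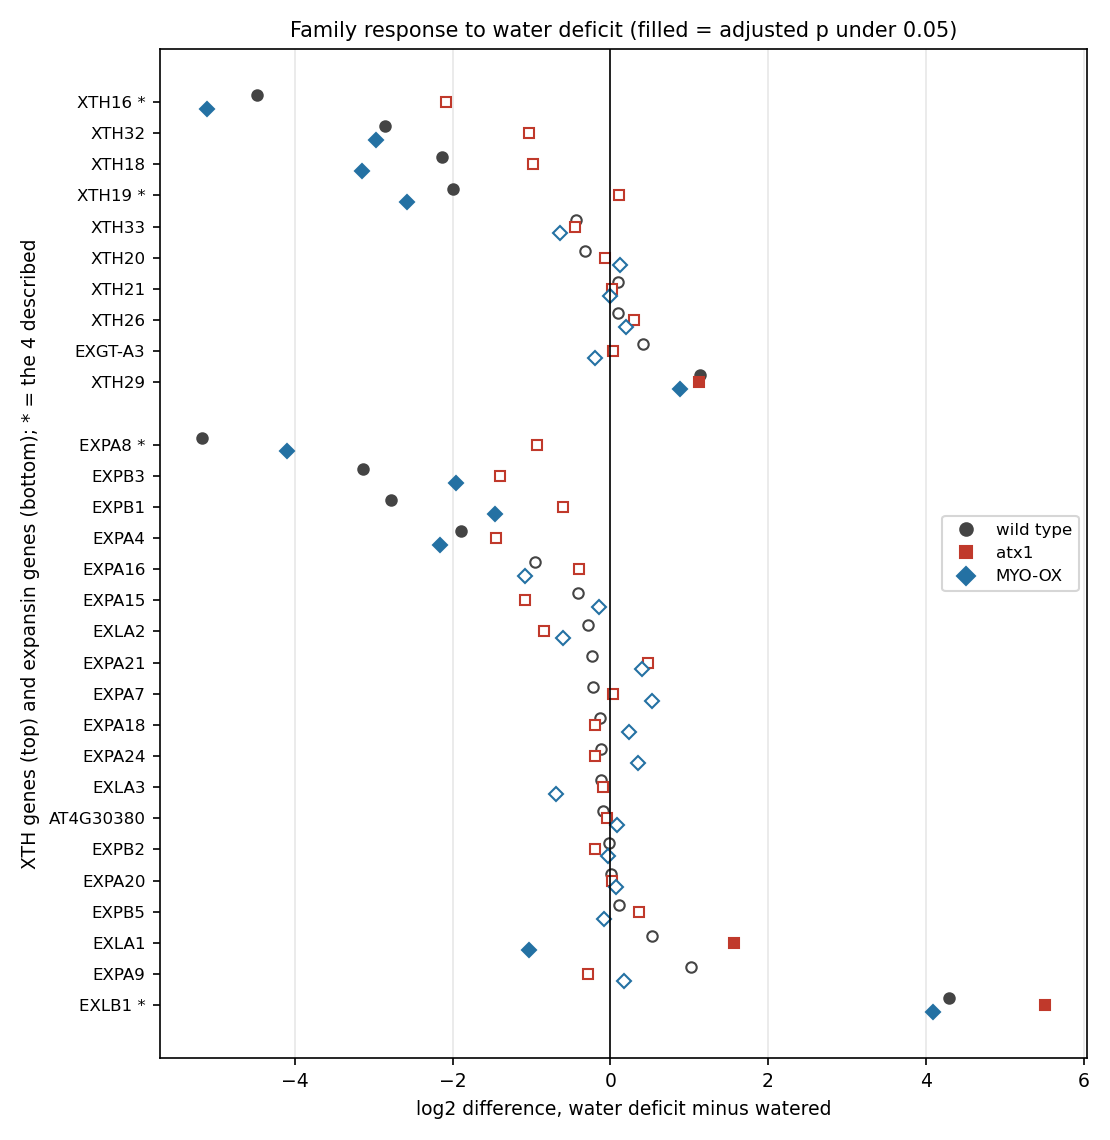
Response to water deficit (horizontal axis, log2 difference of deficit minus watered) of the 29 named XTH and expansin genes in wild type (circles), atx1 (squares) and MYO-OX (diamonds); filled symbols passed an adjusted p under 0.05 and asterisks mark the 4 genes described in full. The 5 other genes that fell in wild type changed by -1.44 to -0.60 in atx1.

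The 5 genes besides the 4 that fell in wild type were all among the 6 that fell in MYO-OX, that is 100% of the first list and 83.3% of the second. Over all probe sets the calls shared were 87.1% of those lower in wild type and 66.4% of those lower in MYO-OX. The sixth in MYO-OX was EXLA1, an expansin-like gene of the A group. In atx1 these 5 genes changed by -1.44 to -0.60, less than in wild type for each, and none was called. The 5 were picked by their calls in wild type, which alone favours a smaller change elsewhere, so this contrast tests nothing. Both deficit arrays of atx1 lay below both watered ones for all 5, as they did for 23.6% of all probe sets. None of their differences of response between atx1 and wild type passed limma, as for the 4 genes above. The largest of these was 2.18, for EXPB1 (SE 0.625, limma adjusted p = 0.25).

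EXLA1 took different directions in atx1 and MYO-OX. Its arrays read 9.43 and 9.27 in watered atx1 and 10.80 and 11.04 under deficit, a rise of 1.57 (SE 0.322, limma adjusted p = 0.0403). In MYO-OX they read 11.16 and 10.41 when watered and 9.59 and 9.92 under deficit, a change of -1.03 (SE 0.322, limma adjusted p = 0.0494). Without watered MYO-OX replicate 1, the array low in PRK and RCA, it was -0.65 (limma adjusted p = 0.247). Wild type stood at 9.22 and 8.51 watered and at 9.60 and 9.19 under deficit, with overlapping arrays and no call (limma adjusted p = 0.327). The atx1 call held under 7 of 19 alternatives and the MYO-OX call under 8 of 19, so that either ended, among others, with each array centred on its median (limma adjusted p = 0.0559 and 0.096). EXLA1 was also higher in atx1 than in wild type under deficit, by 1.52 (SE 0.322, limma adjusted p = 0.0207). This did not pass with the GAPDH covariate (1.101, limma adjusted p = 0.197), with the hybridization covariate (limma adjusted p = 0.106) or without any 1 of the 4 arrays compared (limma adjusted p from 0.0794 to 0.112).

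Of 24 genes listed for the synthesis and trimming of xyloglucan and for cellulose, 5 were measured. CSLC04, for a glucan synthase of the xyloglucan backbone, changed by -1.58 in wild type (limma adjusted p = 0.0418) and by -1.75 in MYO-OX (limma adjusted p = 0.0251). COB, for the COBRA protein that orients cellulose deposition, changed by -1.50 (limma adjusted p = 0.0258) and -1.41 (limma adjusted p = 0.0275). In atx1 CSLC04 and COB changed by -1.05 and -1.06 and were not called. The other members CSLC5, CSLC6 and CSLC12 passed in no genotype. Thus 2 of 5 fell in wild type, 0 in atx1 and 2 in MYO-OX, with medians of -1.11, -0.89 and -0.49, where 10.7%, 1.09% and 14% of all probe sets fell. The wild-type calls of both genes ended without any 1 of the 4 wild-type arrays (limma adjusted p from 0.0756 to 0.242). In MYO-OX both ended without watered replicate 2 (CSLC04 -1.03, limma adjusted p = 0.0644, and COB -0.999, limma adjusted p = 0.0981) and without deficit replicate 2 (limma adjusted p = 0.0688 and 0.158). Both also ended with only the 4 MYO-OX arrays (limma adjusted p = 0.156 and 0.168), and CSLC04 without deficit replicate 1 (limma adjusted p = 0.12).

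Likeness of pattern was measured as Pearson's r over the 12 arrays among 1528 genes outside both families that had a symbol. The arrays fall into watered and deficit groups, so these values describe shared differences between groups. For EXPA8 the nearest genes were DRT100 (r = 0.973), PPR596 (r = 0.97) and PRA1.F1 (r = 0.966). Like EXPA8, DRT100 stood at 9.83 in watered wild type and 4.16 under deficit, and at 10.67 and 9.69 in atx1. For EXLB1 they were PUB19, for a U-box ubiquitin ligase (r = 0.971), SGP1 (r = 0.97) and UPB1 (r = 0.96). PUB19 had means of 8.26 and 11.69 in wild type and 6.61 and 9.99 in atx1. For XTH16 they were MENG (r = 0.984), OTC, for ornithine carbamoyltransferase (r = 0.983), and CPI1, for a cyclopropyl isomerase of sterol synthesis (r = 0.982). For XTH19 they were SETH1 (r = 0.938), IAA29, an auxin-response repressor gene (r = 0.928), and YAB5, a YABBY transcription factor gene of leaf polarity (r = 0.927). SETH1 group means ran only from 3.87 to 4.92, levels not shown to be above background. IAA29 stood at 7.79 in watered wild type, 5.10 in watered atx1 and 8.89 in watered MYO-OX, and at 4.48 to 4.79 under deficit. YAB5 means were 7.16, 5.05 and 7.33 in watered wild type, atx1 and MYO-OX. The 4 genes themselves gave r = 0.95 for EXPA8 with XTH16, r = 0.512 for EXPA8 with XTH19, r = 0.604 for XTH16 with XTH19, and r = -0.83, -0.873 and -0.301 for EXLB1 with EXPA8, XTH16 and XTH19.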

How the data were processed

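Biotinylated cRNA from 12 samples was hybridized to Affymetrix ATH1 arrays. The values deposited by the authors are log2 signals, 1 per probe set and array, made by robust multi-array averaging (RMA), per the submitters' processing notes. Which RMA version was used is not stated there. Quantile normalization, when repeated, still moved values, so the deposited arrays did not all share 1 distribution of signals. Of the 22810 probe sets on an array, 64 controls were set apart. Names came from the annotation table of the array, with 13513 probe sets for 1 gene, 13436 of them matched to a TAIR10.1 locus. Another 8730 tested probe sets were unlisted, so family counts cover named genes alone. Groups of 2 arrays were compared in R 4.3.3 with limma 3.58.1, as 1 mean per group with 6 residual and 2.34 prior degrees of freedom. P values were two-sided, adjusted by Benjamini-Hochberg within each of 9 comparisons. The procedure was tested on simulated data, with independent noise and changes in wild type under deficit alone. Such data hold no effects shared between arrays, so the test says nothing about those. Genes named were the 4, all named family genes, a fixed wall list and the 3 genes most like each by r. The members and lists were chosen with earlier results of these data known. Alternatives were median centring, repeated quantile normalization, the dimmest 40% left out, a replicate block, control covariates, only the arrays compared, and each array left out; a crossed block was added after seeing the data. The number of arrays limits the precision.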

Additional observations from a re-analysis of the deposited data

Results flagged for a closer look

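EXLA1, an expansin-like gene, is set apart because its response to water deficit ran in opposite directions in atx1 and MYO-OX on every array. The atx1 response minus the MYO-OX response was 2.60 on the log2 scale, and this difference was not tested. The MYO-OX response was -1.03, and -0.65 without watered MYO-OX replicate 1. In level, MYO-OX minus wild type was 1.92 when watered (SE 0.322, limma adjusted p = 0.905) and 0.36 under deficit, neither of them called. Against wild type the atx1 response differed by 1.04 (limma adjusted p = 0.49) and the MYO-OX response by -1.55 (limma adjusted p = 1).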

How the results depend on the processing

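The 4 genes gave 36 results, recomputed 692 times under the alternatives, of which 643 kept direction and side of the threshold. In wild type and MYO-OX the calls of EXPA8, EXLB1 and XTH16 held under all 19 alternatives. The replicate block brought XTH16 in atx1 (-2.08) and XTH19 in watered atx1 against wild type (-2.15) past the threshold, and changed no other call of the 4 genes. Same-numbered arrays did not deviate together throughout (r = 0.083 to 0.561, but -0.266 and -0.286 between deficit arrays), so the numbers were not taken to pair samples. Spiked hybridization controls were nevertheless higher on replicate 1 than on replicate 2 in every group. The GAPDH difference was too, except in wild type under deficit. Whether the numbers mark arrays processed together was not tested. Crossing the numbers gave 2603 calls against 2751 for atx1 and 0 against 0 for MYO-OX under deficit. Fitting only the arrays compared ended the calls of EXLB1 in atx1 (5.51), of EXLB1 in watered atx1 against wild type (-2.74) and of XTH19 in MYO-OX (-2.58). The hybridization covariate brought XTH16 in atx1 (-2.78) and XTH19 in watered atx1 (-2.51) past the threshold and ended XTH16 in atx1 under deficit (1.81). It turned the sign of uncalled values, to -0.74 for XTH19 in atx1, -0.002 for XTH16 in watered atx1 and -0.30 for XTH16 in MYO-OX under deficit. The GAPDH covariate did the same for XTH16 (-3.44) and XTH19 (-2.14), ended EXLB1 (-1.49) and XTH16 (1.05) in atx1 under deficit, and turned XTH19 in atx1 (-0.95), EXPA8 (-0.057) and XTH16 (-0.48) in MYO-OX under deficit. Centring (4.11) and leaving out dim probe sets (4.24) brought the EXPA8 difference of responses past the threshold. Centring moved the median change over all probe sets from 0.008 to 0.119 in wild type, from 0.041 to 0.148 in MYO-OX and, for atx1 against wild type under deficit, from 0.01 to -0.222, where calls went from 1674 higher and 1077 lower to 966 and 1628. In wild type they went from 2037 and 2429 to 2563 and 1996, in MYO-OX from 2433 and 3183 to 2999 and 2557, in watered atx1 from 272 and 229 to 206 and 292, and for the atx1 difference of responses from 24 and 16 to 21 and 34. The cause of these changes was not tested.

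With 1 array left out, values in responses ran from -2.22 to -1.78 for XTH19 in wild type and from -3.33 to -1.83 in MYO-OX, and in atx1 from -2.80 to -1.37 for XTH16 and from -0.27 to 0.48 for XTH19. For atx1 against wild type they ran, watered, from -0.99 to 0.07 for EXPA8, from -3.19 to -2.28 for EXLB1 and from -0.26 to 0.85 for XTH16, and under deficit from -1.77 to -1.28 for EXLB1, from 1.97 to 3.40 for XTH16 and from -0.26 to 0.18 for XTH19. For MYO-OX against wild type they ran from -0.17 to 1.08 for watered XTH19, and under deficit from -0.055 to 0.35 for EXLB1, from -0.10 to 0.31 for XTH16 and from -0.88 to 0.63 for XTH19. Differences of responses ran from 3.61 to 4.87 for EXPA8 in atx1, from -0.44 to 0.027 for EXLB1 and from -1.33 to 0.17 for XTH19 in MYO-OX. A group left with 1 array was assumed to vary like the others. Of 21 calls of other named genes, 4 held under every alternative. Counts over all probe sets ranged over the alternatives from 1441 to 6479 in wild type (4466 as reported), 0 to 3908 in atx1 (725), 1176 to 8302 in MYO-OX (5616), 60 to 986 for watered atx1 (501), 504 to 3977 for atx1 under deficit (2751) and 0 to 107 for the atx1 difference of responses (40), and reached 410 for watered MYO-OX without its replicate 2. Promoter and protein features of the genes were not analysed here.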
